A study of Mus musculus with 4 samples.

Results

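The genes described here are 8 peptide and receptor genes of the suprachiasmatic nucleus, the 4 peptide precursor genes Vip, Adcyap1, Prok2 and Nms and the 4 receptor genes Vipr1, Vipr2, Adcyap1r1 and Prokr2. They were taken by symbol out of 19938 genes of the array table, each represented by its highest-mean probe set among those with exactly 1 symbol. All 8 were found, on 9 probe sets, since Vipr1 has a pair. Total RNA came from the hypothalamus of male CDF1 mice (BALB/c x DBA/2), aged 10 to 11 weeks, killed 20 days after a subcutaneous injection in the flank. The control group received a sham injection of 0.2 ml of Hanks' balanced salt solution. The 3 tumour-bearing groups received 500000 (0.5M), 1000000 (1M) or 2000000 (2M) cells of C26, murine colon carcinoma cells that waste the host and serve in studies of cachexia. Each group was 1 array. RNA was pooled from 4 control mice, 4 mice at 0.5M and 3 mice at 1M, while the source label of 2M gives 1 animal although its title calls the sample pooled. All mice lived on a light-dark cycle of 12 h each, and the clock time of killing is not given in the sources used here. No difference between a cell number and control has a replicate check.

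The suprachiasmatic nucleus, above the optic chiasm, is the central circadian pacemaker of mammals. Its ventral neurons make vasoactive intestinal peptide (VIP), which acts on the receptor VPAC2, the product of Vipr2, and keeps the neurons of the nucleus in step. Pituitary adenylate cyclase-activating polypeptide (PACAP, from Adcyap1) is released there by retinal fibres that carry light information, and is also made by hypothalamic neurons, among them those of the ventromedial nucleus. PACAP binds its own receptor PAC1 (Adcyap1r1) and also VPAC1 and VPAC2, and these receptors raise cyclic AMP. Prokineticin 2 (Prok2) is a secreted output signal of the clock with the receptor Prokr2, and neuromedin S (Nms) is a peptide of suprachiasmatic neurons that acts on the neuromedin U receptors. PACAP, prokineticin 2 and neuromedin S are each known to reduce feeding when given into the rodent brain.

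The start regions of the genes were searched for elements through which cyclic AMP and the clock are known to act, and the 3 stretches below, all upstream of the annotated start, are shown because they hold the matches. Sequences are from RefSeq (GRCm38.p6), and windows ran from 250 bases before to 50 bases after the start for all 8 genes, with 2 starts for Adcyap1. Capitals mark TGACGTC, the cyclic AMP response element without its last base, in Vip and Adcyap1, and the E-box CACGTG, to which CLOCK and BMAL1 bind, in Prok2. The Vip stretch is chr10:5639093-5639192 on the + strand, the Adcyap1 stretch chr17:93198880-93198979 on the + strand, and the Prok2 stretch chr6:99726474-99726573 on the - strand.
Vip: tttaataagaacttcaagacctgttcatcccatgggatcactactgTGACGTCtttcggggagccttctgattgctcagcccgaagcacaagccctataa
Adcyap1: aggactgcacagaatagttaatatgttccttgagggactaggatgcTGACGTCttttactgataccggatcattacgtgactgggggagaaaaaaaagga
Prok2: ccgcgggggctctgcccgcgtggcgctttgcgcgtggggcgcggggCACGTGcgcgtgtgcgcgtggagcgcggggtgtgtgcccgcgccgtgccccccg
On both strands, TGACGTC occurred in 3.21% of 32851 promoter windows of the same length, and CACGTG in 7.15%. The match in Vip begins at position -79 from the start, that in Adcyap1 at -91 (-242 from its second start), and that in Prok2 at -135. The full palindrome TGACGTCA, present in 1.79% of windows, was in none of the members' windows, and neither was the D-box TTATGNAA, present in 3.38%. The shorter TGACG, which TGACGTC contains, occurred in 20.8% of windows and, beyond Vip and Adcyap1, in Vipr1 at -13 on the opposite strand. These are letters in a window, not measured binding. Vip and Adcyap1, which share TGACGTC, lay above and below control, as follows, and neither passed limma after adjustment over all genes. Whether the element bears on these levels was not tested.

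Values are log2 expression on the authors' RMA scale (background-corrected, quantile-aligned probe set values), and levels of different genes were not ranked against each other because probes differ in brightness. As a rough reference for weak signal, 1027 olfactory receptor genes had a median of 4.14 log2 and a 95th percentile of 5.72. Of the members, 4 had a mean below the 40th percentile of all genes, 6.59 log2, namely Vip (6.22), Nms (6.18), Vipr1 (6.17) and Prok2 (5.80). The other 4, Vipr2 (6.99), Prokr2 (7.92), Adcyap1 (9.73) and Adcyap1r1 (10.51), lay above it. Prok2 was thus close to the upper range of the olfactory receptor genes, above 95.5% of them. Vip, Nms and Vipr1 were not far beyond it, above 98.1%, 97.8% and 97.7%, and Vip in control was at 5.89 log2. All 8 were kept in the fit, which used no filter on low values.

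In the comparison of the 3 tumour-bearing arrays with the control array, 0 of the 8 genes passed limma (Benjamini-Hochberg adjusted p under 0.05 over all genes), where 1 gene of 19938 (0.00502%) passed in all. That gene was Scgb3a1, a secretoglobin gene, at 2.17 ± 0.13 log2 above control (SD over 3 arrays, limma adjusted p = 0.0484). At an unadjusted p under 0.05, 2 of the 8 passed, Vip and Vipr2, against 7.52% of all genes; both were above control, as 4.88% of all genes were, and 0 were below (2.64%). Adcyap1, below control, also fell under that unadjusted threshold with the 40th or the 60th percentile filter and with an intensity trend in the variance prior, and Vipr2 no longer did without the 2M array. In sign, 7 members were on 1 side of control in all 3 tumour-bearing arrays, as were 55.8% of all genes. Of these, 5 members were above it (33.2% of all genes were) and 2 below (22.5%); the members numbered 4 above and 2 below with each array centred on its median, and 4 above and 3 below with cyclic loess. The 3 differences share the control array, so such runs of 1 sign are common throughout the table. For the same reason, each SD printed with a mean difference is the SD of the 3 tumour-bearing arrays. It leaves out any variation of the control. No member reached 0.5 log2 (1.41-fold) in any array of the deposited values, though Vip did with cyclic loess (0.51 at 0.5M). At 0.5M, 1M and 2M this size was reached upward by 0.692%, 3.21% and 1.78% of genes and downward by 0.697%, 1.59% and 1.23%. The test had 2 residual degrees of freedom, its spread includes cell number and pool size, and the fit takes the single control array to be as variable as the rest. Pools hold several animals without showing their spread, and in bulk tissue fewer cells of a type and less RNA per cell cannot be told apart.

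**Figure D1:**
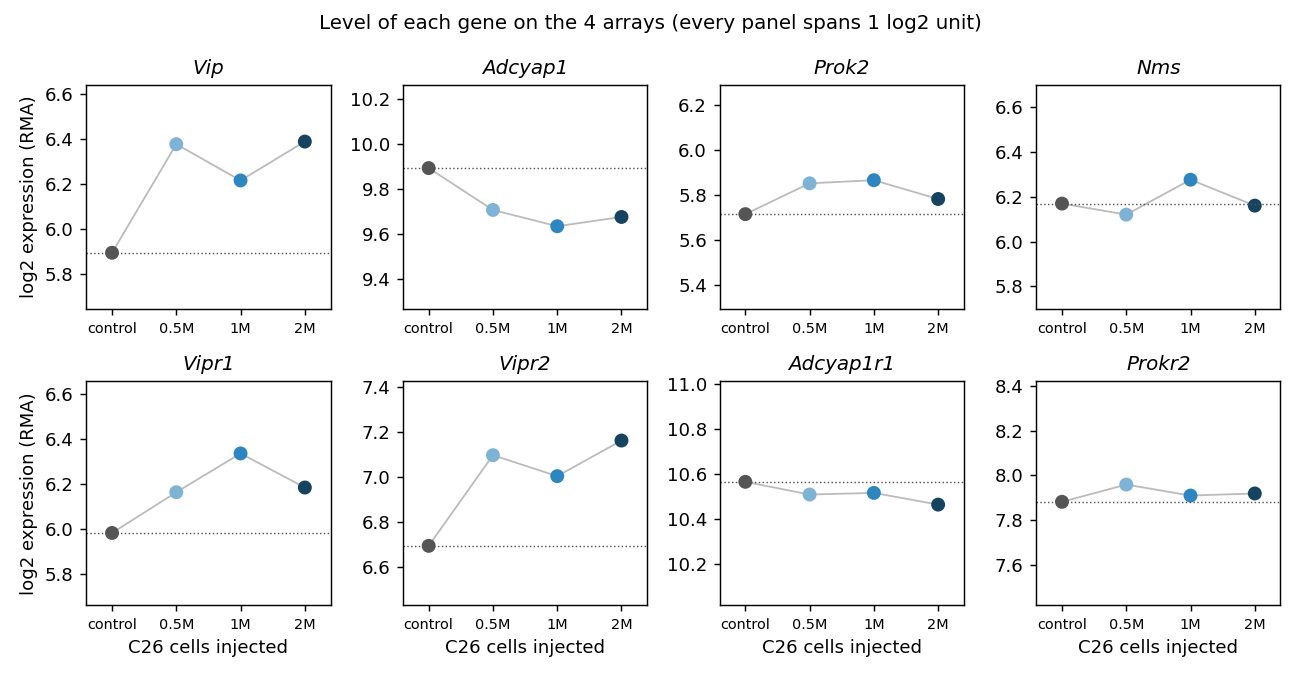
Level of each gene (log2 RMA expression, y axis) on the 4 arrays (x axis, C26 cells injected; 1 array per point). Each panel spans 1 log2 unit and the dotted line is the control level. Vip and Vipr2 have the control point lowest and the same order of arrays, and Adcyap1 has the control point highest.

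Vip, the precursor of VIP and the peptide that couples suprachiasmatic neurons, had the largest difference of the 8. Its level was 5.89 log2 in control, then 6.38 at 0.5M, 6.22 at 1M and 6.39 at 2M. Control was the lowest array, 0.32 log2 under the nearest tumour-bearing one, while the 3 tumour-bearing arrays spanned 0.17 log2 among themselves. The differences from control were 0.48, 0.32 and 0.50 log2, with a mean of 0.43 ± 0.10 (SD, n = 3 arrays), a 1.35-fold level. The 95% interval of that mean by limma ran from 0.14 to 0.73 log2, with an unadjusted p of 0.0111 and an adjusted p of 0.634. Of all genes, 2.76% had a larger mean difference in either direction. The 2M array differed from the 0.5M array by 0.01 log2, and 1M lay below both. With 1 array per cell number, this does not settle whether the level follows the number of injected cells.

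Vipr2 encodes VPAC2, the VIP receptor of the suprachiasmatic nucleus, and was at 6.69 log2 in control, 7.10 at 0.5M, 7.005 at 1M and 7.16 at 2M. Again control was lowest, and the arrays fell in the same order as for Vip, 2M, 0.5M, 1M and control. The differences were 0.40, 0.31 and 0.47 log2, with a mean of 0.39 ± 0.08 (SD, n = 3 arrays), 1.31-fold. Limma gave a 95% interval of 0.11 to 0.68 log2, an unadjusted p of 0.0137 and an adjusted p of 0.634, and 4.00% of all genes had a larger mean difference. Unlike Vip, Vipr2 lay above the 40th percentile of signal.

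Vip and Vipr2 had like profiles. By Euclidean distance between mean-centred log2 profiles over the 4 arrays, Vipr2 ranked 4 among 11963 genes above the 40th percentile, which Vip itself was below, and 5 among all 19937 other genes, at 0.061 log2. The 3 nearer genes above the 40th percentile were Cth, which encodes the cystathionine-cleaving enzyme of cysteine synthesis (0.034), Tbr1, a transcription factor of cortical excitatory neurons (0.052), and Myc, the proto-oncogene transcription factor (0.061). Cth was 0.53, 0.34 and 0.52 log2 above control, Tbr1 0.49, 0.30 and 0.43, and Myc 0.41, 0.32 and 0.47. With 4 points the distance mostly reflects a low control and a dip at 1M, and it is given as a description. The other members were farther from Vip, from Vipr1 at 0.31 log2 to Adcyap1 at 0.58.

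Vipr1 encodes VPAC1, the VIP and PACAP receptor that is prominent outside the suprachiasmatic nucleus. The control value of 5.98 log2 compared with 6.16 at 0.5M, 6.34 at 1M and 6.18 at 2M, with control again the lowest array. The differences were 0.18, 0.35 and 0.20 log2, a mean of 0.25 ± 0.09 (SD, n = 3 arrays; limma 95% interval -0.05 to 0.54, adjusted p = 0.689). Its second probe set gave 0.0035, 0.40 and 0.20 log2, so the pair agreed at 1M and 2M and not at 0.5M. Its highest array was 1M, the array lowest among the tumour-bearing ones for Vip and Vipr2. The 1M array was also the one whose all-gene median lay highest, 0.07 log2 above control. With each array centred on its median, Vipr1 was still highest at 1M, with differences of 0.18, 0.28 and 0.18 log2. Cyclic loess gave 0.20, 0.24 and 0.14 log2.

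Adcyap1, the PACAP precursor, was the peptide gene below control. From 9.89 log2 in control its level was 9.71 at 0.5M, 9.63 at 1M and 9.67 at 2M. Control was the highest array, 0.19 log2 above the nearest, and the tumour-bearing arrays spanned 0.07 log2. The differences of -0.19, -0.26 and -0.22 log2 averaged -0.22 ± 0.04 (SD, n = 3 arrays), 0.858 of the control level. This did not pass limma (95% interval -0.48 to 0.04, unadjusted p = 0.0813, adjusted p = 0.685), and 20.3% of all genes had a larger mean difference. Its receptor gene Adcyap1r1 (PAC1), with the control at 10.57 and the others at 10.51, 10.52 and 10.46 log2, was -0.06, -0.05 and -0.10 log2 from control. That mean of -0.07 ± 0.03 (SD, n = 3 arrays) had a 95% interval of -0.32 to 0.19 log2 by limma (adjusted p = 0.894).

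**Figure D2:**
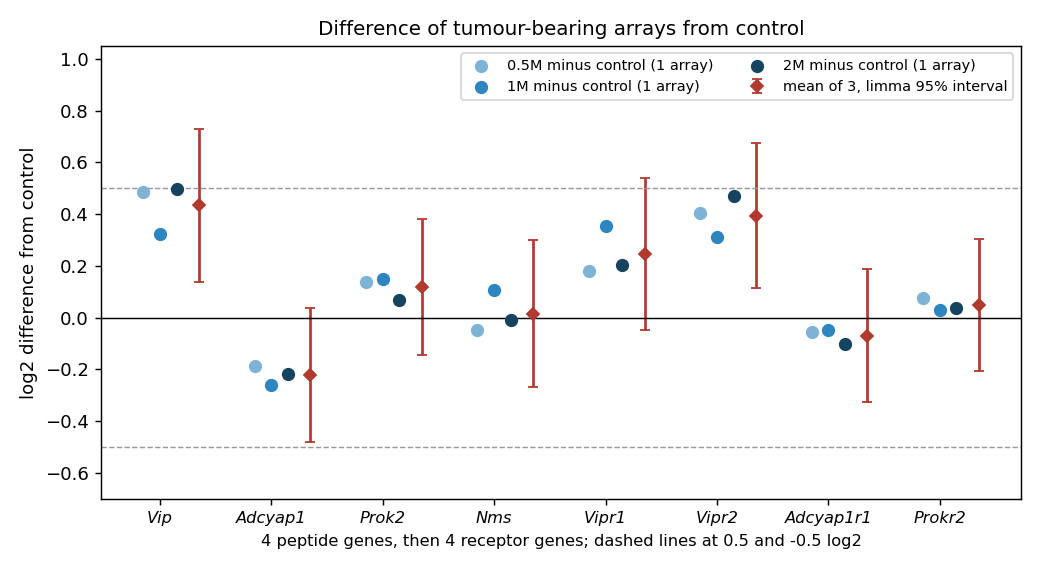
Difference from control (y axis, log2) of each tumour-bearing array (blue points) and their mean with its unadjusted 95% limma interval (red diamonds) for the 8 genes (x axis). The intervals of Vip (0.14 to 0.73) and Vipr2 (0.11 to 0.68) lie above 0 and those of the other 6 include it; after adjustment over all genes 0 passed.

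The prokineticin pair lay near control. Prok2 was 5.72 log2 in control, 5.85 at 0.5M, 5.87 at 1M and 5.78 at 2M, differences of 0.14, 0.15 and 0.07. Its mean of 0.12 ± 0.04 log2 (SD, n = 3 arrays; limma 95% interval -0.14 to 0.38, adjusted p = 0.801) was exceeded in size by 47.2% of all genes. Prokr2, also the receptor whose loss impairs olfactory bulb and gonadotropin-releasing neuron development, was 7.88 log2 in control and 7.96, 7.91 and 7.92 log2 in the others. Its mean difference was 0.05 ± 0.03 log2 (SD, n = 3 arrays; limma 95% interval -0.21 to 0.30, adjusted p = 0.93). With each array centred on its median, Prokr2 was -0.044 log2 at 1M, so its position above control in all 3 arrays depends on the scaling.

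Nms lay on both sides of control in the deposited values, the only member to do so. With cyclic loess it was below control in all 3 arrays (-0.026 log2 from it at 0.5M, -0.0031 at 1M and -0.071 at 2M), and Prok2 lay on both sides (0.16, 0.03 and -0.0037). Against 6.17 log2 in control it was 6.12 at 0.5M, 6.28 at 1M and 6.16 at 2M, and the control lay within the range of the others. The mean difference was 0.02 ± 0.08 log2 (SD, n = 3 arrays; limma 95% interval -0.27 to 0.30, adjusted p = 0.981). The intervals of Prok2 and Vipr1 reach 0.38 and 0.54 log2, so the peptides and receptors other than Vip and Vipr2 are not shown to be unaltered.

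A slope fitted against cell number, with the control at 0, passed limma for 0 of the 8 and for 0% of all genes (6.12% at an unadjusted p under 0.05, 0 of the 8). The unadjusted count depended on the setting. Vipr2 fell under that threshold with the 40th percentile filter, with ranks in place of cell number, and without the 0.5M or the 1M array. Vip did so without the 0.5M array and Vipr1 without the 2M array. The steepest slopes were those of Vip, 0.19 ± 0.10 log2 per 1000000 cells (SE, limma adjusted p = 0.818), and Vipr2, 0.19 ± 0.09 (SE, limma adjusted p = 0.807). Adcyap1 had a slope of -0.09 ± 0.08 (SE, limma adjusted p = 0.866). The 2M array, recorded as 1 animal in its source label and as pooled in its title, carries most of the weight, and a step from control alone gives a slope. Without the control array the slopes of Vip, Vipr2 and Adcyap1 were 0.03, 0.06 and -0.012, and without the 2M array 0.32, 0.31 and -0.26. The slopes without 2M equal the 1M differences from control, because the 0.5M array, midway between them, has no weight there.

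**Figure D3:**
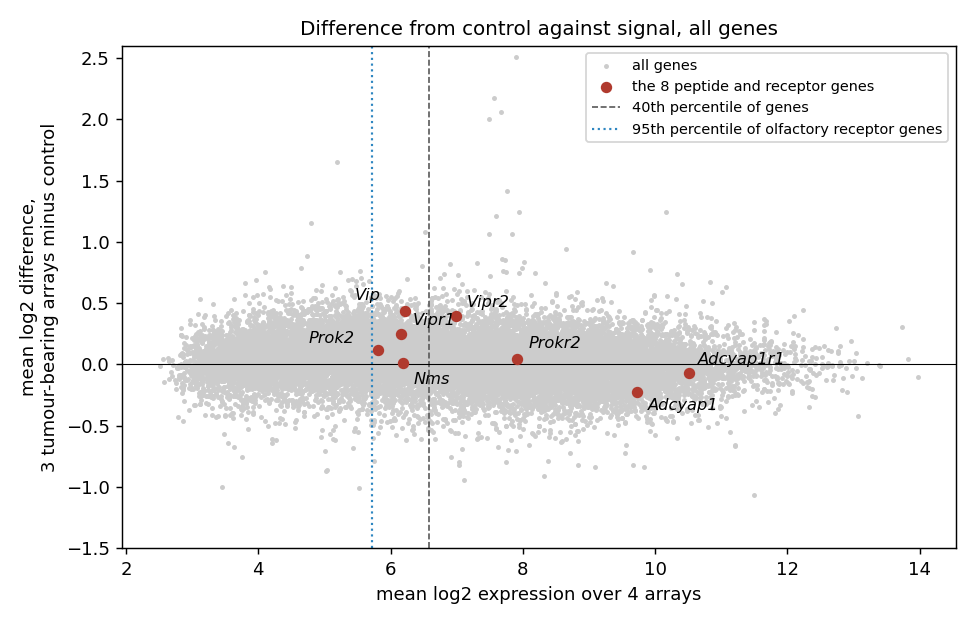
Mean log2 difference of the 3 tumour-bearing arrays from control (y axis) against mean log2 expression (x axis) for all 19938 genes (grey) and the 8 members (red). Vip, at 6.22 log2, is near the upper edge of the cloud but left of the 40th percentile line at 6.59; Vipr2, at 6.99, is right of it.

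Other genes of the same families gave no call. Of 18 further secretin family peptides, receptors and receptor partners, 7 were above and 3 below control throughout, and the median was 0.03 log2, as over all genes (0.03). By limma 0 passed in either direction, and 3 had an unadjusted p under 0.05, Ghrhr, Gcg and Ramp2, all above control. Ghrhr, the receptor for growth hormone-releasing hormone, was 0.36 ± 0.06 log2 above control, Gcg, the proglucagon gene, 0.37 ± 0.17, and Ramp3, a receptor partner, 0.33 ± 0.21. Calcrl, the receptor for calcitonin gene-related peptide and adrenomedullin, was -0.37 ± 0.24 (SD, n = 3 arrays in each case). Of 9 neuromedin and prokineticin relatives, 4 were above and 1 below control on every tumour-bearing array, the median was 0.13 log2, and 0 passed limma (1 at an unadjusted p under 0.05). Prok1, the paralogue of Prok2, was 0.29, 0.31 and 0.32 log2 above control, and Nmbr, the neuromedin B receptor, 0.17, 0.35 and 0.47.

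Other genes known for the suprachiasmatic nucleus lay near control as a list. Of 30 genes, 28 of them past the 40th percentile of signal, 13 were above and 5 below control in all 3 arrays. Their median was 0.07 log2, 0 passed limma, and 2 had an unadjusted p under 0.05. These were Avp, the vasopressin gene, at 0.53 ± 0.03 log2, and Sst, the somatostatin gene, at 0.36 ± 0.09 (SD, n = 3 arrays). Most Avp and Sst transcript in the hypothalamus comes from other nuclei. Six3, an eye-field and forebrain transcription factor, was 0.25 ± 0.17 and C1ql3, a secreted synaptic organiser, 0.25 ± 0.09. Grp, the gastrin-releasing peptide of the same ventral region as VIP, named after its values were seen, was 8.17 log2 in control and 8.01, 7.81 and 8.01 in the others. Grp was thus below control in all 3 arrays, where Vip was above.

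Among 18 clock genes, 8 were above and 3 below control throughout, the median was 0.05 log2, and 0 passed limma at either an adjusted or an unadjusted p under 0.05. The most distant were the repressor Cry2 at 0.25 ± 0.12 log2, the output factors Tef at 0.24 ± 0.02 and Dbp at 0.22 ± 0.20, and the repressor Per2 at 0.22 ± 0.05 (SD, n = 3 arrays). Downstream of the receptors, 10 of 30 cyclic AMP signalling genes were above and 7 below control throughout, and the median was 0.01 log2. Of them 0 passed limma, and 1 in each direction had an unadjusted p under 0.05. Adcy8, a calcium-stimulated adenylyl cyclase, was -0.40 ± 0.09 log2 and Crtc1, a CREB coactivator, 0.36 ± 0.12. Peptide processing genes, which cut and amidate the precursors, had a median of 0.01 log2 over 15 genes, with 3 above and 2 below control in all 3 arrays and 0 passing limma by adjusted or unadjusted p. Pcsk1, a prohormone convertase, was -0.22 ± 0.08 and Vgf, a granin-like precursor, 0.20 ± 0.15.

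Tissue markers also differed between the arrays. Defining hypothalamic markers were found, 12 of 15 past the 40th percentile, and 8 of 15 were above and 1 below control in all 3 arrays. By limma, 6 of the 15 were above control at an unadjusted p under 0.05 (4.88% of all genes were) and 0 below (2.64%). The mean level of the 15 was 8.67 log2 in control, 8.86 at 0.5M, 8.87 at 1M and 8.95 at 2M. Oxt, the oxytocin gene, was 0.74 ± 0.11 log2 above control (SD, n = 3 arrays). Of 10 midbrain and hindbrain markers, 3 of them past the 40th percentile, 7 were below control in all 3 arrays and 0 above, 6 of them at an unadjusted p under 0.05. Their mean level was 6.94 log2 in control and 6.61, 6.57 and 6.55 in the others, and Tph2, the serotonin-synthesizing enzyme of the raphe, was 6.28 log2 in control and 5.44, 5.12 and 5.26 in the others, these 3 under the 95th percentile of the olfactory receptor genes. Vip and Vipr2 differed in the direction of the hypothalamic list and Adcyap1 in that of the midbrain and hindbrain list; the part of tissue content in these differences was not tested. In the cortical and hippocampal list, whose cells also express Vip and Adcyap1, 4 of 10 were above and 2 below control in all 3 arrays, with mean levels of 6.98, 6.93, 7.05 and 7.05 log2 from control to 2M. Slc17a7, a vesicular glutamate transporter of excitatory neurons, was -0.50 ± 0.13 log2 there and Tbr1 0.41 ± 0.10. Ventromedial and mammillary markers, of regions rich in Adcyap1, had 5 of 9 above and 1 below control, with mean levels of 7.18, 7.24, 7.33 and 7.33 log2 from control to 2M.

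The pituitary transcripts Gh and Prl set the 0.5M array apart. Gh, the growth hormone gene, was 6.13 log2 in control, 10.80 at 0.5M, 6.91 at 1M and 6.85 at 2M. Prl, the prolactin gene, was 7.80 log2 at 0.5M, 4.50 at 1M, 4.51 at 2M and 3.95 in control, where it was under the olfactory receptor median of 4.14. The mean level of 10 pituitary markers was 6.27 log2 in control and 7.24, 6.56 and 6.38 in the others, and 7 were above and 2 below control in all 3 arrays. The high mean at 0.5M rests on Gh and Prl. Of the other markers, Ghrhr was farthest above control at 0.5M, by 0.40 log2, and Lhb was 0.34, 0.38 and 0.33 log2 above it. The list's median difference was 0.25 log2 at 0.5M, 0.35 at 1M and 0.19 at 2M. Vip was as far above control at 2M (0.50 log2) as at 0.5M (0.48), and without the 0.5M array its mean difference was 0.41 and that of Vipr2 0.39. Gh and Prl were above control at 1M and 2M as well. The part of pituitary content in the differences of Vip and Vipr2 was not tested. Striatal markers were also highest at 0.5M, with mean levels of 8.82 log2 in control and 9.24, 8.89 and 8.92 in the others. Of the remaining lists, thalamus, choroid plexus, oligodendrocytes, astrocytes, microglia, endothelium and blood cells, 0 genes passed limma in either direction. Their median differences over the 3 arrays ran from -0.11 log2 in microglia to 0.22 in blood cells. Single markers lay farther out. The platelet chemokine gene Ppbp exceeded its control level by 1.03 log2 at 0.5M, 1.33 at 1M and 1.38 at 2M, the erythroid gene Alas2 by 0.94, 0.83 and 0.79, and the endothelial gene Vwf by 0.78, 0.71 and 0.76. These 3 differed in the direction of Vip and Vipr2, and their part in the result was not tested. Their lists were not uniform. Of 7 blood genes, 4 were above control in all 3 arrays, 0 below and 3 mixed. Of 10 endothelial genes, 6 were above and 2 below, the latter being Tek (-0.31, -0.32 and -0.33 log2) and Cldn5 (-0.20, -0.18 and -0.11). Opalin, an oligodendrocyte gene, was -1.72 log2 from control at 2M.

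**Figure D4:**
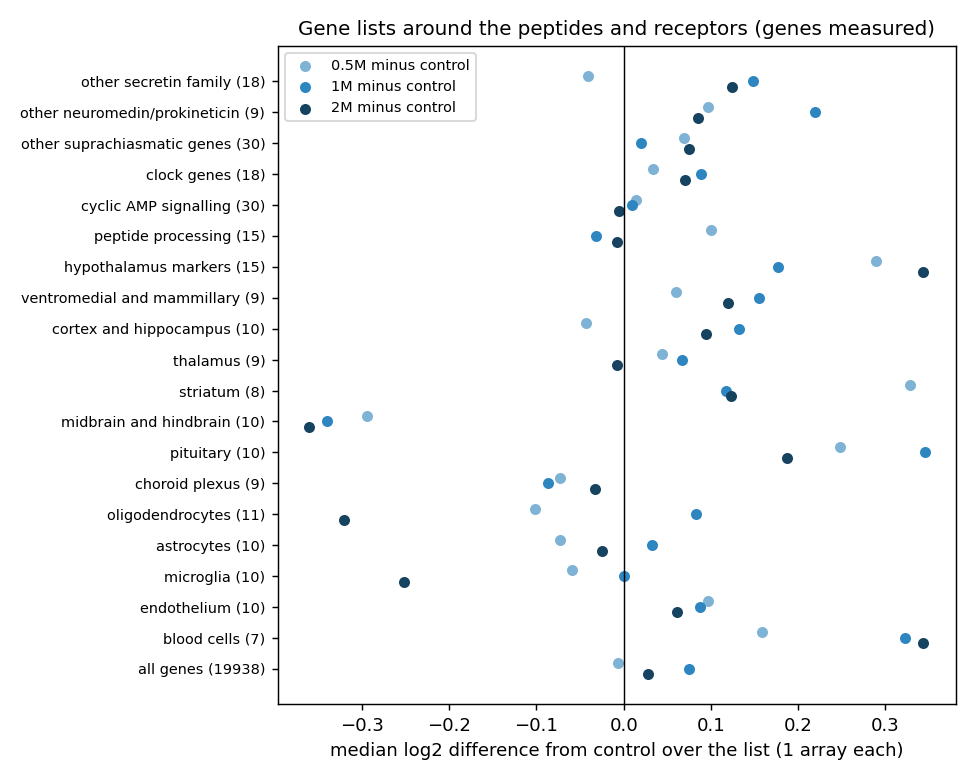
Median log2 difference from control over each gene list (x axis; y axis names the list and the number of genes measured), 1 point per tumour-bearing array. Hypothalamic markers lie above 0 and midbrain and hindbrain markers below 0 on all 3 arrays, while clock genes and cyclic AMP signalling genes lie within 0.1 log2 of 0.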

How the data were processed

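The 4 arrays were analysed from the deposited table of log2 values; per the submitters' processing notes, the authors used RMA, of which no version or software is stated. RMA aligns all arrays by quantiles, which largely removes a shift common to all transcripts. The gene values still differed slightly, with the all-gene median at 1M 0.07 log2 above control. The table held 35556 probe sets, of which 21789 had exactly 1 symbol in the platform's annotation, giving 19938 genes. All 8 members matched RefSeq by Entrez number. Array medians were 6.72 to 6.77 log2 and correlations between arrays 0.984 to 0.994. Per the labels' protocols, 100 ng of RNA with an integrity number above 8 went on each array. With no counts behind an array value, the number of arrays limits the precision.

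Limma 3.58.1 in R 4.3.3 (lmFit, eBayes, Benjamini-Hochberg over all genes, two-sided, threshold 0.05) compared the 3 tumour-bearing arrays with the control and fitted a trend with cell number, each with 2 residual degrees of freedom. Both fits were tested on simulated data. There each gene had the same independent noise on every array, control included, so the simulation does not check how variable the real control array is. Python 3.11.15 did the rest. No filter was used, so that all members were tested. The members and 19 other lists (260 genes, 240 analysed here) were chosen with earlier results of these data known. Named were all members, in each list at most 4 genes, those farthest from control on average, and the 3 genes most like Vip, the member with the widest range. Grp and Ramp2 fall outside this rule and were named after their values were seen. So does Scgb3a1, named as the 1 gene that passed limma. Alternatives changed the filter, normalization, probe set rule, variance prior, dose scale and arrays used.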

Additional observations from a re-analysis of the deposited data

Results flagged for a closer look

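Nms was 0.11 log2 above control at 1M and -0.05 log2 from it at 0.5M, opposite directions at different cell numbers with 1 array each. The difference was not tested. With cyclic loess Nms was below control at each cell number, -0.0031 log2 at 1M and -0.026 at 0.5M.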

How the results depend on the processing

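No member passed limma at an adjusted p under 0.05 in any of 142 fits under alternatives, where the lowest adjusted p was 0.362, and direction was kept in 131. In the tumour comparison Vip ran from 0.39 to 0.49 log2 and Vipr2 from 0.36 to 0.44 over the alternatives that included each gene. Adcyap1 ran from -0.26 to -0.20. Vip and the 3 other genes of low signal were outside the test under both filters, and Vipr2 was outside it under the 60th percentile filter. Filters and the variance prior leave an estimate unchanged, as does the probe set rule for members with 1 probe set. Fits under these alternatives could not reverse, though they count among those that kept direction. The reversals were of small values and their cause was not tested. With each array centred on its median, Nms was -0.019 in the tumour comparison, and the trends of Nms and Prokr2 were -0.0063 and -0.0085 log2 per 1000000 cells. With cyclic loess Nms was -0.033, and the trends of Prok2 and Nms were -0.028 and -0.032. Of 84 differences per array under alternatives, 11 moved by more than the spread of the 3 arrays, 4 with median centring and 7 with cyclic loess, all but 1 of them at 1M. Differences under the filter, or under the probe set rule for members with 1 probe set, could not move. Leaving out arrays in turn, Nms ran from -0.029 to 0.049 in the tumour comparison. In the trend, leaving out arrays, control included, Nms ran from -0.0045 to 0.11, Prok2 from -0.052 to 0.15, Vipr1 from -0.0097 to 0.35 and Prokr2 from -0.021 to 0.028. The upper ends of these ranges are the slopes without 2M, which equal the 1M differences from control.

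Over all genes, the tumour comparison called 6 with the 40th percentile filter, 2 with the 60th, 3 with cyclic loess, 9 with an intensity trend in the prior and 0 to 3 with an array left out (0 without 0.5M, 0 without 1M, 3 without 2M). The trend called 2 with the intensity trend and 0 to 62 with an array left out, 62 without 0.5M and 9 without 1M. With the 40th percentile filter, 67 genes were at least 0.5 log2 above and 35 below control at 0.5M, 195 above at 1M, and 148 above and 149 below at 2M. Median centring gave 353 above and 498 below at 1M, against 640 and 318, and cyclic loess 346 above. No paired analysis was possible because each group is 1 array and the labels number no replicates.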
